A study of Rattus norvegicus with 12 samples.

Results

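C1qa, C1qb and C1qc, the genes of the 3 chains of complement component C1q, and C3, the central complement component, were followed in the T9 (lower thoracic) spinal cord of rats. They were the 4 rows of the deposited table with the identifiers ENSRNOG00000012807, ENSRNOG00000012749, ENSRNOG00000012804 and ENSRNOG00000046834, in that order, out of 32883 genes listed. All 4 were present, and all 4 passed the filter on low counts that left 5285 genes to test. The gene names come with the rule that chose the rows, and no table used here pairs these identifiers with names.

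The animals were Sprague Dawley rats, an outbred strain, and each of 3 groups had 4 libraries. Uninjured cord came from animals without spinal cord injury. Injured cord was taken 5 days after a hemisection at T9, a cut through 1 side of the cord. Stimulated cord was taken 5 days after the same injury from animals that also received epidural electrical stimulation over segments L2 to S1. The piece measured was therefore the lesioned segment, away from the stimulated ones. Not given in the sources used here are sex, age, the stimulation schedule, and whether the other groups had sham surgery or an implanted electrode. The labelled tissue could not be checked against marker genes, because identifiers other than those of the 4 genes carry no names here.

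C1q is the recognition molecule of the classical complement pathway. Its A, B and C chains, each with a collagen-like stalk and a globular head, assemble together, so that the complete molecule needs all 3 gene products. C1q binds antibody complexes, dying cells, myelin debris and synapses, and its binding activates the proteases C1r and C1s, which lead to cleavage of C3. Cleaved C3 coats its target with fragments that phagocytes recognise through complement receptors, and releases the small peptide C3a. In the central nervous system microglia are the main known source of C1q, with macrophages contributing after injury, while C3 is known to be made by reactive astrocytes and by several infiltrating and vascular cell types.

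The 3 C1q genes lie next to one another on rat chromosome 5 in the RefSeq table, in the order C1qb, C1qc, C1qa with no other listed gene between them, and C3 lies on chromosome 9. None of the 4 overlaps a neighbouring gene in that table. The 250 bases before the RefSeq start of transcription are shown for C1qa and C1qb, the outer genes of the cluster, which both rose, and for C3, which moved less. C1qc is named only. They are RefSeq sequences in build GRCr8, not the build named for the counts, at chr5:154419934-154420183 for C1qa, chr5:154407828-154408077 for C1qb and chr9:2201340-2201589 for C3, all on the minus strand and written 5′ to 3′ along the gene. Capitals mark GGAAGT on either strand (ACTTCC on the other), the core bound by ETS factors such as the myeloid factor PU.1, and TTGCNNAA on either strand, a form of the C/EBP motif.
C1qa: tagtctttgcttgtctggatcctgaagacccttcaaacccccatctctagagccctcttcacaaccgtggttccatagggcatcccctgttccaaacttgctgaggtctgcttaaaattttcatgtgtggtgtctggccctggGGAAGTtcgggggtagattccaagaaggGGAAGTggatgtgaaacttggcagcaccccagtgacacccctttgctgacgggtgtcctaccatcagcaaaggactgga
C1qb: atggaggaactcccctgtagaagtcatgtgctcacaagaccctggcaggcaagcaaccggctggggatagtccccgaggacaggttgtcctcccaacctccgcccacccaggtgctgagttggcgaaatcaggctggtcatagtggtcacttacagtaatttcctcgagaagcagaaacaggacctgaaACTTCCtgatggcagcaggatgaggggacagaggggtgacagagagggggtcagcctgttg
C3: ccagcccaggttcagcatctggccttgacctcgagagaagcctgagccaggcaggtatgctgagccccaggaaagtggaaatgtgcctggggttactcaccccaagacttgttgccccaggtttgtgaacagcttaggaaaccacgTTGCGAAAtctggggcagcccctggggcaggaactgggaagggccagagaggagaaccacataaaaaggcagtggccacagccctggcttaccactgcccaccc

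Counting back from the start, C1qa had GGAAGT at -107 to -102 and again at -79 to -74, and C1qb had it on the opposite strand at -61 to -56. C3 had no GGAAGT and had TTGCGAAA at -104 to -97, while neither C1q window had TTGCNNAA. Among 33469 promoter windows of the same length, 19.2% held GGAAGT and 9.22% held TTGCNNAA on either strand. TTCNNNGAA, a STAT-type palindrome, was found in C1qa at -90 to -82 and in 7.67% of all windows. TATAAA was in none of the 3 windows and in 12.9% of all. These 4 motifs were picked after the sequences had been read, none of the matches overlap, and a match describes letters only.

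Uninjured libraries held 254762 to 450114 counts, injured ones 399386 to 553986 and stimulated ones 204836 to 306186. The counts are of 3' tags, which are taken near the end of a transcript whatever its length. Injured replicate 1 stood apart from the other injured libraries. On the first component of log2 CPM (CPM, counts scaled to library size) over the 5285 genes, which held 52.4% of the variance, it scored -0.025, the other 7 hemisected libraries 20.2 to 34.4 and the uninjured libraries -56.9 to -47.4. The fold changes, the count ratios between members and the correlations over hemisected libraries were recomputed without it and without each other library. The other values below use all libraries.

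The 3 C1q chains rose together and strongly after hemisection, with fitted group folds of about 16 to 23, and to a like extent with stimulation. For each chain every hemisected library lay above every uninjured one. C3 was present at a low level in all 3 groups, and its higher mean after injury did not pass the test. Between stimulated and injured cord none of the 4 genes passed the test. In bulk tissue, more cells that express a gene and more RNA per cell cannot be told apart.

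**Figure D1:**
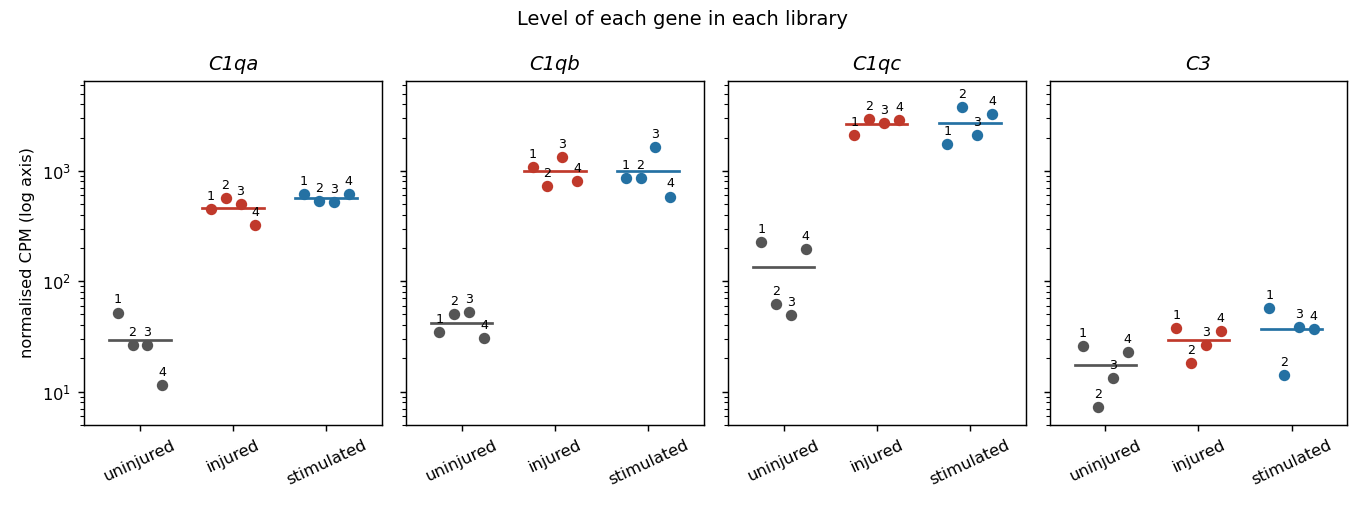
Normalised CPM (log axis) of each of the 4 genes in each library. Points are libraries with their replicate numbers, and lines are group means (n = 4). For C1qa, C1qb and C1qc all hemisected libraries lie above all uninjured ones, and for C3 the groups overlap.

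C1qa encodes the A chain, which carries a main binding site for many C1q ligands. Its normalised level in uninjured replicates 1 to 4 was 52.0, 26.4, 26.3 and 11.4 CPM, from 12, 11, 8 and 3 counts. In injured replicates 1 to 4 it was 450, 569, 498 and 322 CPM, and in stimulated replicates 1 to 4 it was 612, 531, 519 and 617 CPM. The lowest injured library was 6.18 times the highest uninjured one, and the lowest stimulated library was 9.97 times the highest uninjured one. Group means were 29.0 ± 16.9 CPM (uninjured), 460 ± 104 CPM (injured) and 570 ± 52.1 CPM (stimulated; SD, n = 4 each). C1qa rose by a log2 fold change of 3.99 in injured cord, a fitted fold of 15.9 (SE 0.37, edgeR adjusted p = 1.61e-06), and by 4.30 in stimulated cord, a fold of 19.8 (SE 0.37, edgeR adjusted p = 8.55e-07).

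C1qb encodes the B chain, which pairs with the A chain through a disulphide bond. Its level in uninjured replicates 1 to 4 was 34.7, 50.4, 52.6 and 30.4 CPM, from 8, 21, 16 and 8 counts. Injured replicates 1 to 4 were at 1087, 722, 1336 and 804 CPM, and stimulated replicates 1 to 4 at 861, 853, 1653 and 585 CPM. No hemisected library came near the uninjured range: the lowest injured library was 13.7 times, and the lowest stimulated library 11.1 times, the highest uninjured one. Stimulated replicate 3 was the highest of all 12 libraries and stimulated replicate 4 the lowest of the 8 hemisected ones. The uninjured mean was 42.0 ± 11.1 CPM, the injured mean 987 ± 280 CPM and the stimulated mean 988 ± 461 CPM (SD, n = 4 each). The log2 fold change was 4.52 in injured cord (fitted fold 23.0, SE 0.40, edgeR adjusted p = 1.09e-06) and 4.52 in stimulated cord (fitted fold 23.0, SE 0.40, edgeR adjusted p = 9.36e-07).

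C1qc encodes the C chain, which pairs with another C chain and so joins the A and B pairs. In uninjured replicates 1 to 4 it was at 225, 62.4, 49.3 and 197 CPM, from 52, 26, 15 and 52 counts, so replicates 1 and 4 were high and replicates 2 and 3 low. Injured replicates 1 to 4 were at 2104, 2962, 2727 and 2889 CPM, within 1.41-fold of one another. Stimulated replicates 1 to 4 were at 1745, 3789, 2094 and 3263 CPM, with replicates 2 and 4 high and replicates 1 and 3 low. The lowest injured library was 9.33 times, and the lowest stimulated library 7.74 times, the highest uninjured one. Means were 134 ± 90.7, 2670.5 ± 390 and 2723 ± 962 CPM in uninjured, injured and stimulated cord (SD, n = 4 each). The log2 fold change was 4.34 in injured cord (fitted fold 20.3, SE 0.47, edgeR adjusted p = 5.78e-06) and 4.37 in stimulated cord (fitted fold 20.7, SE 0.47, edgeR adjusted p = 4.71e-06). Its raw counts reached 1707 in injured replicate 4, which is 41.7% of the number of different 6-base identifiers, near which the highest counts of the table stop. After a correction for molecules that share an identifier, the log2 fold change was 4.56 in injured and 4.50 in stimulated cord.

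All 3 chains therefore rose in both comparisons with uninjured cord, where 16.8% of the genes tested rose in injured and 18.3% in stimulated cord (edgeR adjusted p under 0.05). Their groups did not overlap in either comparison, where 16.6% of genes in injured cord and 16.0% in stimulated cord lay wholly above the uninjured libraries. Both comparisons use the same 4 uninjured libraries. By size of rise in injured cord, C1qb ranked 33, C1qc 39 and C1qa 59 among the 5285 genes. In stimulated cord the ranks were 47 for C1qb, 51 for C1qc and 56 for C1qa. The median log2 fold change of the 4 genes was 4.17 in injured cord, and that of all genes tested was -0.0037. In stimulated cord these medians were 4.34 and 0.013. The 4 genes were chosen with earlier results of these data known, so their ranks and medians are a description and no test. Summed over the 3 chains, C1q took 0.0188% ± 0.00821 of an uninjured library's counts, 0.409% ± 0.0321 after injury and 0.385% ± 0.0824 with stimulation (SD, n = 4 each). Uninjured libraries ranged from 0.0111% to 0.0283% and the 8 hemisected libraries from 0.277% to 0.477%.

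**Figure D2:**
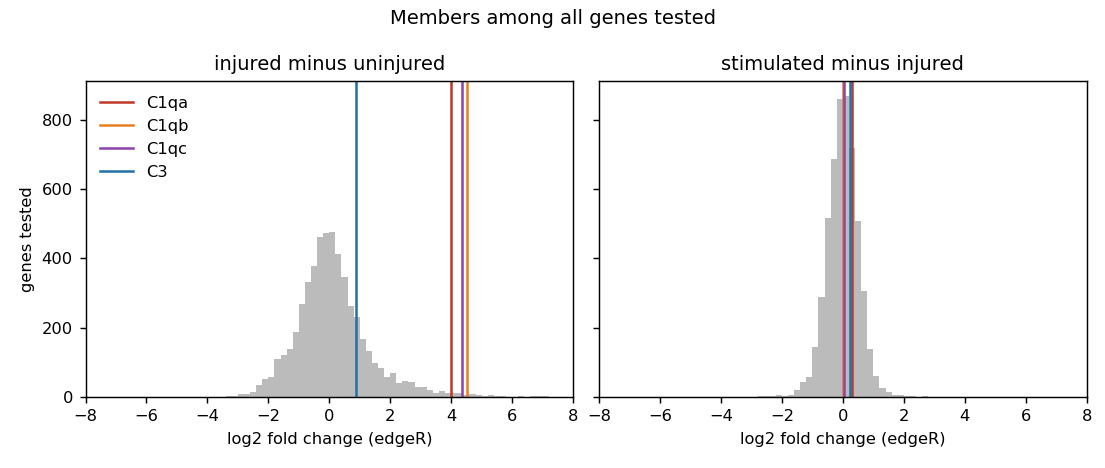
Log2 fold changes of all 5285 genes tested (grey histogram, number of genes in bins of 0.2) for injured against uninjured cord (left) and stimulated against injured cord (right), with coloured lines at the 4 genes. On the left the 3 C1q chains lie at 3.99 to 4.52 in the upper tail and C3 at 0.86, and on the right all 4 lie between 0.0026 and 0.31.

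C3 encodes the protein at which the classical, lectin and alternative pathways meet. It was counted in every library but rarely: 6, 3, 4 and 6 counts in uninjured replicates 1 to 4, 19, 7, 10 and 21 in injured, and 10, 4, 10 and 8 in stimulated replicates 1 to 4. The corresponding levels were 26.0, 7.20, 13.1 and 22.8 CPM in uninjured cord, 37.4, 18.1, 26.3 and 35.5 CPM in injured cord, and 56.7, 14.2, 38.4 and 37.1 CPM in stimulated cord. The groups overlapped: injured replicate 2 and stimulated replicate 2 lay below the 2 highest uninjured libraries. Counting alone leaves wide limits at this depth. The 3 counts of uninjured replicate 2 were 6.66 CPM of its unscaled total, with an exact Clopper-Pearson 95% interval of 1.37 to 19.5. The 10 counts of stimulated replicate 1 were 48.8 CPM on that scale, with an interval of 23.4 to 89.8. Means were 17.3 ± 8.67, 29.3 ± 8.90 and 36.6 ± 17.4 CPM in uninjured, injured and stimulated cord (SD, n = 4 each).

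The C3 log2 fold change in injured cord was 0.86 (SE 0.48, edgeR unadjusted p = 0.0893, adjusted p = 0.184), higher than 79.8% of the genes tested. In stimulated cord it was 1.10 (SE 0.51, edgeR unadjusted p = 0.0439, adjusted p = 0.104), higher than 83.3% of genes. Neither passed the threshold. Without stimulated replicate 2, the lowest stimulated library, the second value was 1.41 and passed (edgeR adjusted p = 0.0388). The limma-voom 95% interval of the fold against uninjured cord was 0.930 to 4.22 for injured cord and 0.933 to 4.80 for stimulated cord, so these libraries leave room for no rise and for one of more than 4-fold. For the C1q chains the same intervals were 9.86 to 28.7 for C1qa, 12.8 to 37.1 for C1qb and 13.5 to 45.4 for C1qc in injured cord, all above the upper limit for C3.

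**Figure D3:**
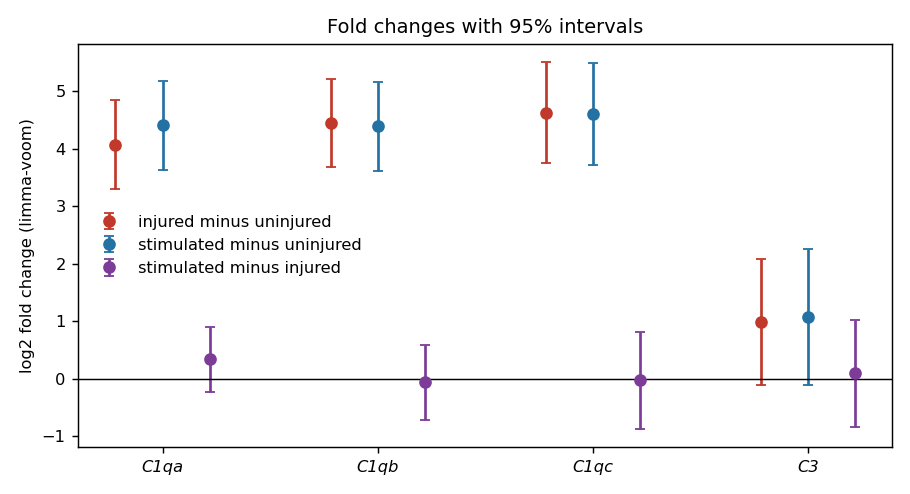
Log2 fold changes of the 4 genes from limma-voom (points) with 95% intervals (bars) for the 3 comparisons. The intervals of the C1q chains against uninjured cord start at 3.30 or above, while every interval between stimulated and injured cord, and every interval of C3, includes 0.

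The difference between C3 and the C1q chains was tested directly, from the ratio of their counts within each library, which needs no scaling between libraries. Per 100 counts of C1qa there were 52.0, 30.4, 52.9 and 186 counts of C3 in uninjured replicates 1 to 4, against 3.40 to 11.3 in the injured and 2.99 to 9.68 in the stimulated ones. Per 100 counts of C1qb uninjured libraries had 16.3 to 76.5 counts of C3, injured ones 2.07 to 4.52 and stimulated ones 1.86 to 6.89. Per 100 counts of C1qc the numbers were 12.4 to 29.0, 0.655 to 1.82 and 0.42 to 3.40. For each chain all hemisected libraries lay below all uninjured ones. Against uninjured cord the log2 C3 to chain ratio differed by -3.27 for C1qa, -3.71 for C1qb and -3.81 for C1qc in injured cord. In stimulated cord the differences were -3.35, -3.40 and -3.53. All 6 differences had p = 0.0286 (exact two-sided permutation, the smallest that 4 against 4 can give) and adjusted p = 0.0429 over the 9 C3 to chain comparisons. The other 3 of those, between stimulated and injured cord, were -0.085, 0.31 and 0.28, with adjusted p of 0.735 to 0.886 by the same exact test. C3 is thus the member whose change differed in size from that of each C1q chain, although its counts are few and it enters all 9 ratios.

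**Figure D4:**
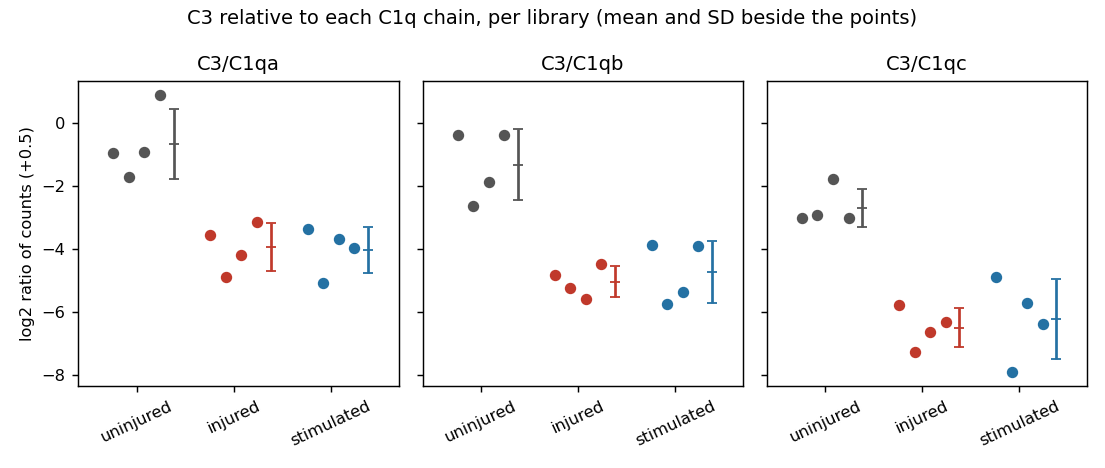
Log2 ratio of C3 counts to the counts of C1qa, C1qb and C1qc (0.5 added to each count) in each library (points), with the group mean and SD beside them (n = 4). Hemisected libraries lie below all uninjured libraries in each panel, and the injured and stimulated libraries overlap.

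The third comparison asked whether the lesioned segment differed with stimulation. C1qa had a log2 fold change of 0.31 (SE 0.30) in stimulated against injured cord, C1qb 0.0026 (SE 0.33), C1qc 0.029 (SE 0.40) and C3 0.24 (SE 0.45), with edgeR adjusted p of 0.744 to 0.998. The directions of C1qb and C1qc turned with scaling by total counts but not with median-ratio factors, and these shifts were within their error. No gene of the 5285 passed this test (0%), 9.29% had an unadjusted p under 0.05 (491 genes), and other settings called 0 (weighted limma-voom), 1 (DESeq2), 2 (a within-group component, described below, as covariate) and 28 genes (no filter on low counts). The limma-voom 95% interval of the fold was 0.851 to 1.88 for C1qa, 0.609 to 1.51 for C1qb, 0.549 to 1.76 for C1qc and 0.562 to 2.03 for C3. For the C1q chains these limits lie within a doubling or halving. The missed threshold does not show that the groups were equal. All 4 genes had overlapping groups in this comparison, where 4.82% of genes had groups that did not overlap. The libraries of C1qa were closer together in stimulated cord (coefficient of variation 9.15%) than in injured cord (22.7%), and those of C1qb and C1qc were wider (46.7% against 28.4%, and 35.3% against 14.6%). These differences in spread were not tested. Every stimulated library was shallower than every injured one, with 108 to 150 C1qa counts each. With all libraries thinned to the same total of 204836 counts, the log2 fold changes of C1qa, C1qb and C1qc between stimulated and injured cord were 0.30, 0.033 and 0.0043.

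The 3 chains did not differ detectably from one another in their change. Of the 9 differences in chain to chain ratio, the widest was 0.54 on the log2 scale, for C1qc to C1qa in injured against uninjured cord, with SDs of 0.42 and 1.36 (n = 4 each, exact two-sided permutation p = 0.486). Adjusted over the 9, all had p = 0.943 by that exact test. The uninjured libraries, with 3 to 12 counts of C1qa and 15 to 52 of C1qc, had the wider SD in the C1qc to C1qa ratio. With identifier collisions corrected this widest difference was 0.76 (exact two-sided permutation, adjusted p = 0.9). It was 0.16 without uninjured replicate 3 and 1.17 without uninjured replicate 4, so its size depends on single uninjured libraries.

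Within groups, in contrast, the C1qc to C1qb ratio fell into separate levels. There were 6.18, 1.23, 0.939 and 6.18 counts of C1qc per count of C1qb in uninjured replicates 1 to 4. In injured replicates 1 to 4 there were 1.93, 4.10, 2.04 and 3.59, and in stimulated replicates 1 to 4 there were 2.02, 4.44, 1.27 and 5.56. So uninjured replicates 1 and 4, injured replicates 2 and 4, and stimulated replicates 2 and 4 were high at 3.59 to 6.18, and the other 6 libraries were low at 0.939 to 2.04. The same 6 libraries had positive scores, and the other 6 negative scores, on the first component of the deviations from group means over the other 5281 genes, which held 39.5% of the within-group variance. The high libraries scored 13.1 to 33.9 and the low ones -30.9 to -12.3. In each group the high libraries had more C1qc and less C1qb, in normalised CPM, than the low ones, by the values given above. How many of the other 5281 genes separated between the same libraries was not counted. The split is therefore not shown to be particular to this pair. In stimulated cord the C1qb levels nearly met, at 853 CPM in replicate 2 and 861 CPM in replicate 1. C1qa showed no such split. The labels name no batch that divides the libraries this way. In every group replicate 4 was high and replicate 3 low, while replicates 1 and 2 changed sides between groups. The split was noticed in these data and no test was attached to it. With the component as a covariate, chosen after seeing the data, the log2 fold changes of C1qb and C1qc were 4.59 and 4.56 in injured cord and 4.56 and 4.53 in stimulated cord, and that of C3 in stimulated cord was 1.11 (edgeR adjusted p = 0.0789).

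**Figure D5:**
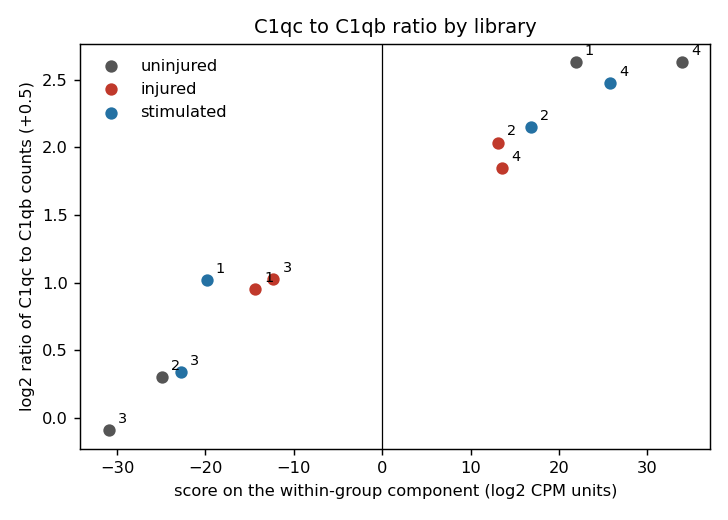
Log2 ratio of C1qc to C1qb counts (0.5 added) in each library against its score on the first within-group component of 5281 other genes, with replicate numbers and group colours. In every group the 2 libraries with positive scores have the higher ratios.

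Across the 8 hemisected libraries no pair of members had a correlation that passed adjustment with all libraries. Of 6 pairs, the strongest relation was an opposite one between C1qc and C3 (Pearson r = -0.788, permutation p = 0.0197; Spearman rho = -0.833, permutation p = 0.0154), with adjusted permutation p of 0.118 and 0.0923 over the 6 pairs. Without stimulated replicates 1 and 2, the libraries farthest from the median of C1qc, r was -0.394. Without single libraries r was -0.916 to -0.668, and it passed adjustment without stimulated replicate 4 (r = -0.916, adjusted permutation p = 0.025). C1qb and C1qc had r = -0.482 (permutation p = 0.230, adjusted 0.689), and without injured and stimulated replicates 3 r was -0.524. C1qa had r of -0.170 with C1qb, -0.069 with C1qc and -0.024 with C3 (adjusted permutation p = 0.956 for each).

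Likeness of profile over all 12 libraries was measured as Pearson r of log2 CPM with the mean of the 3 chains, as a description only, since all genes that differ between uninjured and hemisected cord share that step. Of 3110 other genes with a mean count of 20 or more, 80 had r of 0.95 or more. ENSRNOG00000019890 was the most alike (r = 0.989), with means of 20.5 ± 8.35, 960 ± 386 and 1471 ± 319 CPM (uninjured, injured, stimulated; SD, n = 4). ENSRNOG00000010208 was next (r = 0.986), at 46.8 ± 6.14, 691 ± 156 and 771 ± 166 CPM (SD, n = 4). By the same measure between single genes, r was 0.956 for C1qa with C1qb, 0.940 for C1qa with C1qc and 0.913 for C1qb with C1qc, against 0.547 to 0.587 for C3 with each chain. By likeness to C1qa among all 5284 other genes tested, whatever their mean count, C1qb ranked 44, C1qc 113 and C3 1244.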

How the data were processed

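Total RNA of rat T9 spinal cord was sequenced as 3' tags in 12 libraries. Per the labels' protocols, libraries were made with CEL-Seq2, and the submitters' processing notes list, without role or order, the build Rnor_6.0 and the tools HTSeq 0.6.0 and HISAT2 2.0.4. The authors deposited whole-number counts per gene. Not given in the sources used here are collapsing by molecular identifier, annotation release and strand setting. The highest count of each library was 4059 to 4094, just under the number of different 6-base identifiers, so counts of abundant transcripts may be compressed. Total counts were 204836 to 553986.

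The 4 genes and the gene lists were chosen with earlier results of these data known. The identifiers were paired with gene names by the rule that chose the genes. The RefSeq table (GRCr8) holds all 4 names but 0 Ensembl identifiers, so these pairings were not checked, and the pathway and cell type marker lists could not be applied.

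The fit used edgeR 4.0.16 in R 4.3.3 (filterByExpr, TMM factors, robust quasi-likelihood fit of group over all 12 libraries, Benjamini-Hochberg adjustment over 5285 genes, threshold 0.05). Standard errors were obtained as log2 fold change over the root of F. Normalised CPM is the TMM-scaled CPM over the genes tested, which held 92.6% to 93.9% of each library, and log2 CPM used a prior count of 2. Intervals of fold changes are from limma 3.58.1 with voom at 95%. Ratios between genes used raw counts plus 0.5 and exact two-sided permutation over 70 arrangements, with adjustment over 9 tests in each of 2 families. Identifiers named for a like pattern were those with the highest Pearson correlation of log2 CPM with the mean of the 3 C1q chains, among genes with a mean count of 20 or more. Since the labels do not tie libraries to animals, p-values reflect the spread between libraries, which may be technical. Replicates differed by more than counting noise (chi-square per degree of freedom 2.95 to 10.0 within groups).

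Alternatives were median-ratio factors, total counts, 2 other filters, the 2 compared groups alone, a block for the replicate number, weighted limma-voom, DESeq2 1.42.0, thinning to 204836 counts, correction for identifier collisions, a pseudocount of 1, a prior count of 0.5 and leaving out each library. The within-group component as a covariate was added after seeing the data.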

Additional observations from a re-analysis of the deposited data

Results flagged for a closer look

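The highest or lowest library of a group was singled out where its distance from the next one, as a share of the range, passed Dixon's 95% critical value. This was examined in 30 groups of 4, over the CPM of the 4 genes and the 6 ratios between them. It was met in 2, and chance gives about 1.5. The log2 ratio of C3 to C1qc was -1.78 in uninjured replicate 3 and -3.01 to -2.92 in the other uninjured libraries (gap 0.924 of the range), and it rests on 4 counts of C3 and 15 of C1qc. The log2 ratio of C1qb to C1qa was 0.34 in injured replicate 2 and 1.27 to 1.42 in the other injured libraries (gap 0.860 of the range), from 279 and 220 counts.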

How the results depend on the processing

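The rise of C1qa, C1qb and C1qc against uninjured cord kept its direction and stayed past the threshold in all 11 other settings and without each of the 12 libraries. Log2 fold changes over these were 3.74 to 4.35 for C1qa, 4.34 to 4.65 for C1qb and 4.03 to 4.81 for C1qc in injured cord. The C3 to chain ratios against uninjured cord kept their call with a pseudocount of 1 and with identifier collisions corrected. Without 1 library of the 2 groups compared, exact p-values of these ratios are not given here. The differences stayed negative and moved by less than the spread between libraries. C3 against uninjured cord did not pass the threshold in the settings run, except in stimulated cord without stimulated replicate 2. Leaving out each library gave it 0.78 to 1.41 in stimulated cord. C3 was too low to be tested with a mean count of 20 or after thinning, and in the fits of injured or stimulated with uninjured cord alone.

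Between stimulated and injured cord the near-zero values changed sign without any call, and the cause was not tested. C1qb was -0.14 and C1qc -0.12 with total counts, which moved the median of all genes to -0.15 there and to 0.12 in injured against uninjured cord. They were -0.10 and -0.070 with no filter and -0.0036 and -0.063 with collisions corrected. With the component as covariate they were -0.027 and -0.031. C1qb was -0.0013 with only the 2 groups and -0.15 with weighted limma-voom. The replicate numbers were not taken as pairs. Of the same-numbered pairs 7 of 12 had a correlation of deviations over 0.1 (range -0.344 to 0.429). Differently numbered pairs ranged from -0.454 to 0.487, and 10 of 24 best matches were the own number. With the replicate block C1qb was -0.065 and C1qc -0.010, and no member's call changed. Leaving out each library gave -0.40 to 0.18 for C1qb, -0.18 to 0.19 for C1qc and -0.021 to 0.54 for C3. Genes called in this comparison numbered 28 with no filter, 1 with DESeq2, 2 with the component and 0 to 1 when a library was left out. In injured against uninjured cord 1692 genes were called, and 1123 with a mean count of 20, which left fewer to test. The C1qc to C1qb ratio between stimulated and injured cord was -0.057 with collisions corrected. Correlations without 1 library ranged from -0.63 to 0.065 for C1qa with C1qb, -0.24 to 0.21 for C1qa with C1qc and -0.30 to 0.17 for C1qa with C3.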
